A study of Mus musculus with 57 samples.

Results

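The 10 genes described here carry the transforming growth factor beta (TGF-beta) signal in microglia: Tgfb1, Nrros, Tgfbr1, Tgfbr2, Smad2, Smad3, Smad4, Smad7, Ski and Skil. They were listed by name and read by gene symbol from 2 tables of raw counts, which held 50565 and 53278 genes. All 10 had enough counts to be tested in both tables. RNA was sequenced from CD11b-positive brain cells of mice, labelled microglia, that were wild type (WT) or littermates deficient in P2RY12 (KO), a nucleotide receptor of resting microglia. In the first experiment, called the sex experiment, adult males (4 WT and 5 KO) and adult females (4 WT and 5 KO) were profiled, with no treatment named in their labels. In the second, called the LPS experiment, libraries were labelled LPS or ns for each genotype, 8 each of WT ns, KO ns and KO LPS and 9 of WT LPS. LPS, or lipopolysaccharide, is the outer-membrane glycolipid of Gram-negative bacteria and a strong inflammatory stimulus, given here by intraperitoneal injection of 1 mg/kg. What ns stands for is not defined. The labels give no sex for the second experiment and no exact age, and name neither the allele behind the P2RY12 deficiency nor the interval between injection and cell collection.

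TGF-beta1, the product of Tgfb1, is secreted in a latent form. Nrros encodes a protein that tethers latent TGF-beta1 to the surface of microglia and other myeloid cells, where integrins release the active ligand. The ligand binds the type II receptor, encoded by Tgfbr2, which recruits and phosphorylates the type I receptor, encoded by Tgfbr1. The type I receptor phosphorylates SMAD2 and SMAD3, which enter the nucleus with SMAD4 and regulate target genes. SMAD7 blocks the type I receptor, and SKI and SKIL (also called SnoN) hold back transcription by SMAD complexes. Microglia depend on TGF-beta for their mature identity, and mice without the ligand in the brain or without the receptor on microglia lose homeostatic microglial genes.

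On the build used for the counts, GRCm39, Tgfb1 lies on chromosome 7 from 25386406 to 25404503, Tgfbr1 on chromosome 4 from 47353222 to 47414926, and Smad3 on chromosome 9 from 63554048 to 63665276. Tgfbr2 is also on chromosome 9, Nrros on 16, Ski on 4, Skil on 3, and Smad2, Smad4 and Smad7 are all on 18. These spans include introns and untranslated regions. Genes on the opposite strand overlap the spans of Tgfbr1, Tgfbr2, Smad3 and Smad7. In the sex experiment the counts of these partners equalled 27.9% of the Smad7 count (Gm41776), 7.19% of the Tgfbr1 count (Gm32435), 3.48% of the Tgfbr2 count and 2.97% of the Smad3 count. The strand setting of the counting is not given in the sources used here, so reads of these genes and their partners cannot be told apart.

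Totals ran from 58.5 to 318.5 M counts (M for mega) in the sex experiment and from 15.9 to 168.4 M, with a median of 24.7 M, in the LPS experiment. WT LPS 8 and WT LPS 9 differed little more than by sampling noise and were counted as 1 sample. P2ry12, the targeted gene, was at 3007 to 5928 CPM (a gene's count divided by its library's TMM-scaled total in M) in the WT animals of the sex experiment and at 309 to 526.4 in the KO animals. In the LPS experiment it was at 3536 to 5476 in WT ns, 588 to 1169 in KO ns, 405 to 1020 in WT LPS and 85.2 to 148 in KO LPS. These ranges leave out 4 WT libraries that carry library number 2 in their names and go against their labels, as P2ry12 and Saa3, an acute-phase gene induced by LPS, show. Saa3 in WT ns 1 and WT ns 5, as labelled, was at 1814 and 2426 CPM, against 1.53 to 64.7 in the 6 other WT ns libraries. In WT LPS 1 and WT LPS 6, as labelled, Saa3 was at 1.61 and 2.98 CPM, against 1417 to 9329 in the other WT LPS samples. The 4 libraries were modelled as groups of their own and entered no comparison, and each WT result is also given with all libraries in their labelled groups. This leaves 6 WT ns, 6 WT LPS, 8 KO ns and 8 KO LPS samples.

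A second set of libraries stood apart in composition. In 6 libraries of the LPS experiment, transcripts rich in G and C were depleted: KO ns 5, KO ns 6, KO LPS 5, WT LPS 7, and 2 of the number 2 libraries (WT ns 5 and WT LPS 6). Over genes other than the 10, their log2 deviation fell with a slope between -1.80 and -0.966 per 10 percentage points of transcript GC, against -0.0933 to 0.492 in the other 26 samples of that experiment. The slope lay between -0.0940 and 0.136 in the 18 animals of the sex experiment. All 6 come from the second of the 2 library sets given by the names. WT ns 4, a first-set library with 168.4 M counts, had the highest slope, 0.492, and the next highest was 0.165 (KO LPS 8). WT ns 4 stays in the fits of the first set alone and in those without the GC-poor libraries. The 10 genes span a wide range of GC, and 4 of the 6 could be set against other libraries of their group and set. Tgfb1, with 62.5% GC in its longest coding transcript, was lower there by a mean log2 ratio of -3.04. Ski (55.6% GC) was at -2.69, Smad7 (56.9%) at -2.43 and Smad3 (53.1%) at -1.41. At the other end, Tgfbr1 and Skil (both 41.0% GC) were at 1.04 and 1.06 and Smad2 (44.9%) at 0.80. Nrros, Tgfbr2 and Smad4 lay between, at -0.97, -0.88 and -0.87. The LPS results are therefore also given without these 6 libraries, which was chosen after seeing the data and leaves 6 WT ns, 5 WT LPS, 6 KO ns and 7 KO LPS samples.

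**Figure D1:**
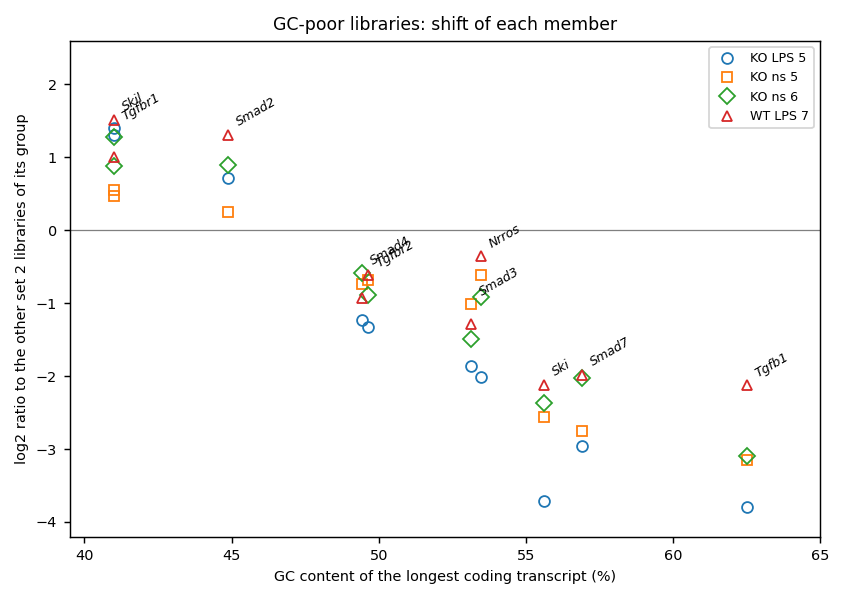
Transcript GC content (x axis, %) of each of the 10 genes against the log2 ratio of its CPM in a GC-poor library to the mean of the other second-set libraries of its group (y axis), 1 symbol per library. Tgfb1 at 62.5% GC had a mean ratio of -3.04, and Tgfbr1 at 41.0% GC a mean ratio of 1.04.

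Per length of exon, with every annotated exon base of a gene counted once, the type I receptor was the most abundant of the 10 transcripts. In KO ns samples other than the GC-poor ones, Tgfbr1 was at 345 ± 31.9 CPM per kb of exon (SD, n = 6). Ski at 102 ± 5.21, Tgfbr2 at 94.7 ± 8.83 and Tgfb1 at 87.5 ± 8.67 followed, and neighbours among these 3 differed by less than the sum of their SDs. Nrros was at 55.3 ± 5.26, Smad3 at 37.4 ± 4.13 and Skil at 29.4 ± 2.37 CPM per kb. Smad7 at 17.2 ± 1.08 and Smad4 at 14.9 ± 1.40 were next and also differed by less than the sum of their SDs, and Smad2 was the lowest at 5.92 ± 0.419. Smad3 transcripts thus stood above those of Smad2, the other receptor-regulated SMAD of the pathway, per length. The order was the same in WT ns, where Tgfbr1 was at 315 ± 50.1 and Smad2 at 5.83 ± 0.371 CPM per kb (n = 6). Under LPS, Tgfbr1 still stood first by this exon length, at 127 ± 9.50 in KO (n = 7) and 122 ± 10.6 in WT (n = 5). In both genotypes Smad3 then ranked below Skil, Smad7 below Smad4 and Tgfb1 below Nrros. Tgfb1 and Nrros differed there by less than the sum of their SDs, at 58.7 ± 7.42 and 58.8 ± 10.8 in KO. Exon lengths are those of GENCODE M21 and do not cover reads from introns. For some genes they far exceed the longest coding transcript, at 5042 against 2175 bp for Tgfb1 and 9694 against 6717 bp for Skil. For Tgfbr1 the lengths were 6534 and 5756 bp, and for Ski 5562 and 5522 bp. A shorter length would raise Tgfb1 most among these genes. The order, and the first place of Tgfbr1 under LPS, were not tested with transcript lengths.

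The LPS comparison asks which of the genes differ in level between LPS and ns in each genotype. Tgfbr1 and Smad3 fell in KO and in WT, and none of the 10 rose. That is 2 of 10 genes called in each genotype at an adjusted p-value under 0.05, all lower. Of all 17954 genes tested, 26.2% were called in KO (11.9% higher and 14.2% lower) and 28.1% in WT (13.5% higher and 14.6% lower), so the share among the 10 lies near that of all genes. The median log2 fold change of the 10 was -0.21 in KO and -0.46 in WT, against -0.03 and -0.02 over all genes tested. With all libraries in their labelled groups, 1 of 10 was called in KO (Tgfbr1, background 22.3%) and 0 in WT (background 0%). In that WT comparison edgeR called 0 of 15857 genes, although 3605 had an unadjusted p-value under 0.05. Without the 6 GC-poor libraries, 5 of 10 were called in each genotype, beside backgrounds of 49.9% and 49.6%, again near the share of all genes. In bulk samples, fewer cells of a type and less RNA per cell cannot be told apart. The labels do not say that the libraries of a group in the LPS experiment come from separate animals, so p-values measure only the spread between these samples, which may be technical.

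**Figure D2:**
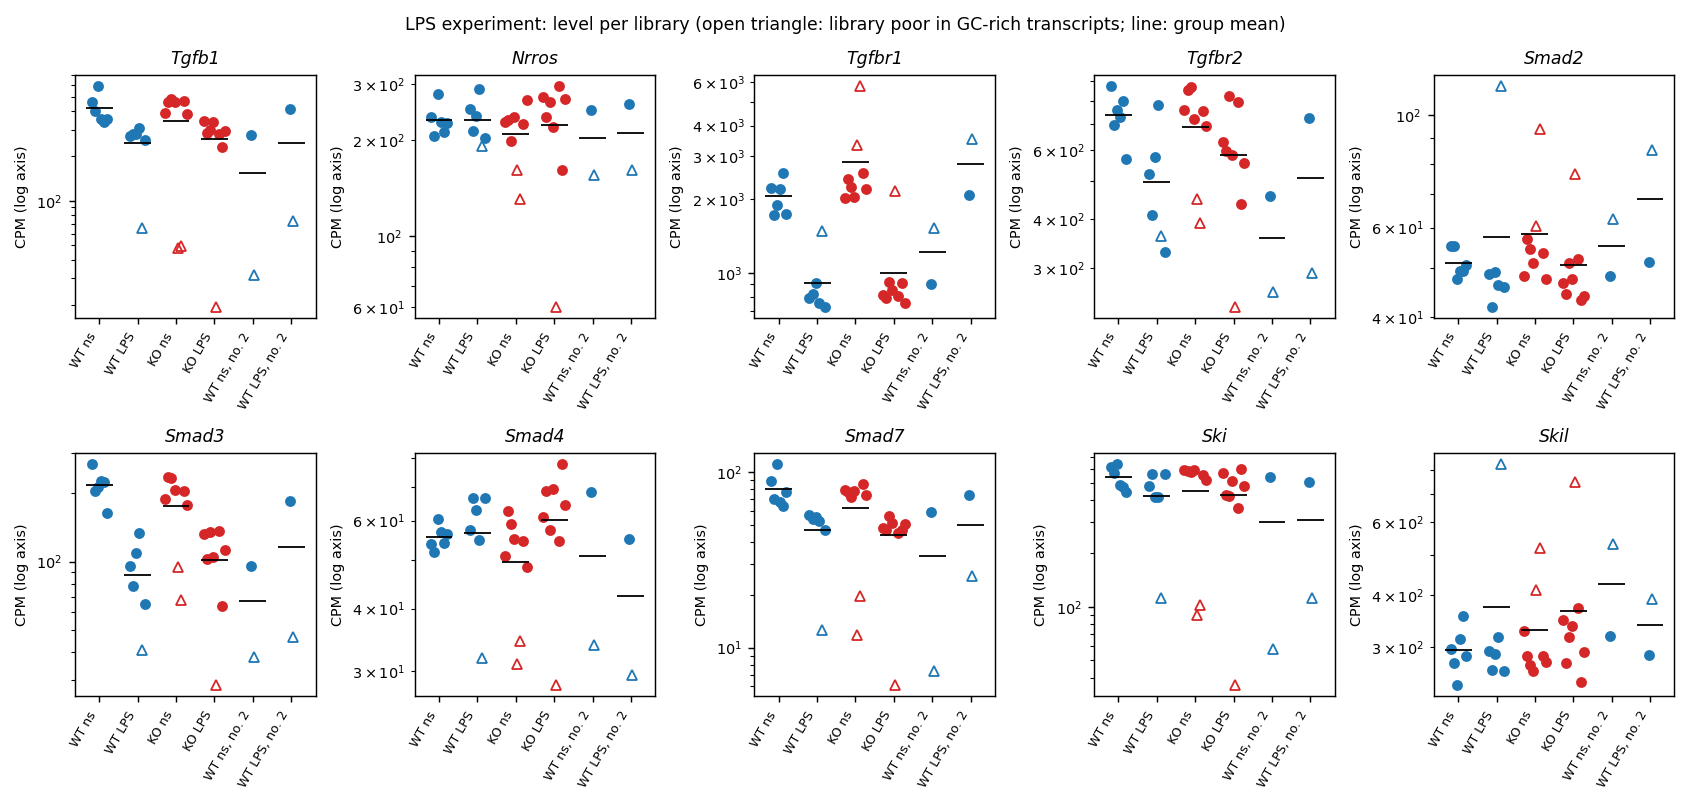
CPM (log axis) of each gene in every sample of the LPS experiment, by group, with the 4 WT libraries of number 2 in the last 2 columns. Points are samples, open triangles the 6 GC-poor libraries, and lines group means. Apart from the triangles, every Tgfbr1 value under LPS (727 to 917) lies below every ns value (1733 to 2564) in the 4 main groups.

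Tgfb1, the ligand, was at 338, 379 and 595 CPM in WT ns (lowest, median and highest of 6) and at 65.1, 276 and 311 in WT LPS (6). In KO ns it was at 47.8, 425 and 485 (8), and in KO LPS at 19.3, 291 and 343 (8). The WT groups did not overlap, while the KO groups did, because the 2 GC-poor libraries KO ns 5 and KO ns 6 lay below most LPS samples. Tgfb1 was not called in either genotype, with log2 fold changes of -0.35 ± 0.44 (SE) in KO and -0.76 ± 0.52 in WT, or -0.53 ± 0.46 in WT with all libraries as labelled (adjusted p = 0.492). The KO groups separated as well once the GC-poor libraries were left out, at 382 to 485 CPM in ns and 232 to 343 in LPS. Tgfb1 was then lower under LPS by -0.51 ± 0.09 in KO (adjusted p = 7.93e-05) and by -0.56 ± 0.10 in WT (adjusted p = 9.84e-05). In the first library set alone, which holds no GC-poor library, the values were -0.48 ± 0.12 and -0.79 ± 0.13, both called. That set holds WT ns 4, the library of highest GC slope, which also had the highest Tgfb1 value of WT ns (595 CPM). Its part in the WT value of that set was not tested.

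Nrros, the anchor of latent TGF-beta1, did not pass the test. Its median was 227 CPM in WT ns, 226 in WT LPS, 227 in KO ns and 250 in KO LPS, and the groups overlapped. The log2 fold change was 0.08 ± 0.20 in KO (95% interval -0.34 to 0.49) and 0.00 ± 0.23 in WT (-0.48 to 0.48), with no call. It was 0.13 ± 0.12 and 0.07 ± 0.13 without the GC-poor libraries, again with no call.

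The type I receptor Tgfbr1 fell in both genotypes. It was at 1733, 2042 and 2563 CPM in WT ns (lowest, median, highest of 6) and at 727, 803 and 1482 in WT LPS (6), with no overlap. In KO ns it was at 2034, 2329 and 5825 (8), and in KO LPS at 752, 831 and 2163 (8). In KO, 7 of the 8 LPS samples lay below every ns sample, and the remaining one, the GC-poor library KO LPS 5 at 2163, exceeded 2 ns samples. Tgfbr1 had a log2 fold change of -1.49 ± 0.21 in KO (adjusted p = 4.49e-06) and of -1.18 ± 0.25 in WT (adjusted p = 0.000588). With the GC-poor libraries left out it was at -1.39 ± 0.09 (adjusted p = 7.44e-12) and -1.34 ± 0.10 (adjusted p = 1.07e-10), going from 2252 ± 208 to 833 ± 62.1 CPM in KO and from 2059 ± 327 to 799 ± 69.6 in WT (mean ± SD). Within the first library set the log2 fold changes were -1.35 ± 0.10 in KO and -1.20 ± 0.12 in WT, both called. Within the second set, which holds the GC-poor libraries, they were -1.46 ± 0.44 (adjusted p = 0.0864) and -1.13 ± 0.50 (adjusted p = 0.249), and neither was called. The 4 number 2 libraries went the other way: Tgfbr1 was at 905 and 1533 CPM in those labelled WT ns 1 and WT ns 5 and at 2081 and 3511 in those labelled WT LPS 1 and WT LPS 6. With them in their labelled groups the WT difference was -0.40 ± 0.31 (adjusted p = 0.426), and the KO difference was -1.50 ± 0.31 (adjusted p = 0.00124).

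Tgfbr2, the type II receptor, did not pass the test with all libraries. It was at 569, 746 and 877 CPM in WT ns, at 331, 465.97 and 784 in WT LPS, at 390, 737 and 872 in KO ns and at 239, 590 and 827 in KO LPS. Groups overlapped in both genotypes. The log2 fold change was -0.23 ± 0.21 in KO (adjusted p = 0.486) and -0.56 ± 0.25 in WT (adjusted p = 0.0868), neither called, and -0.35 ± 0.23 in WT with all libraries as labelled (adjusted p = 0.352). Without the GC-poor libraries it was called in WT, at -0.47 ± 0.18 (adjusted p = 0.0282), and not in KO, at -0.23 ± 0.16 (adjusted p = 0.235). The first library set alone also gave a WT call, at -0.61 ± 0.15 (adjusted p = 0.0058). The difference between the genotypes without the GC-poor libraries was itself not called, at 0.24 ± 0.24 (adjusted p = 0.953).

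Of the signal transducers, Smad3 fell in both genotypes and Smad2 did not pass the test. Smad3 was at 164, 219 and 269 CPM in WT ns and at 40.9, 87.0 and 134 in WT LPS, with no overlap. In KO ns it was at 67.6, 196 and 235, and in KO LPS at 28.6, 108 and 137, where the GC-poor libraries KO ns 5 and KO ns 6 overlapped the LPS range. The log2 fold change of Smad3 was -0.77 ± 0.28 in KO (adjusted p = 0.0375) and -1.33 ± 0.32 in WT (adjusted p = 0.00248). The KO call was lost when any 1 of 9 KO libraries was left out (KO ns 2, 3, 4, 7 and 8, and KO LPS 2, 4, 5 and 7). It was also lost with all libraries as labelled, at -0.78 ± 0.32 (adjusted p = 0.0744), where WT was at -0.95 ± 0.32 (adjusted p = 0.128). With the GC-poor libraries left out no values overlapped in either genotype, and Smad3 was lower by -0.82 ± 0.16 in KO (adjusted p = 0.000155) and -1.16 ± 0.18 in WT (adjusted p = 1.06e-05). The first library set alone gave -0.84 ± 0.13 and -1.25 ± 0.15, both called, and the second gave -0.59 ± 0.51 and -1.30 ± 0.59, neither called. In the number 2 libraries that are not GC-poor, Smad3 was at 95.4 CPM in the one labelled WT ns 1 and at 185 in the one labelled WT LPS 1.

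Smad2 was at 47.6, 49.97 and 55.2 CPM in WT ns and 41.9, 47.4 and 114 in WT LPS, the highest value being the GC-poor library WT LPS 7. Its log2 fold changes were -0.20 ± 0.17 in KO and 0.14 ± 0.20 in WT. They were -0.09 ± 0.06 and -0.13 ± 0.06 without the GC-poor libraries, with adjusted p-values of 0.188 and 0.0949. Smad4, the shared partner of the receptor-regulated SMADs, was at 0.29 ± 0.17 in KO and 0.01 ± 0.20 in WT, with no call. Once those libraries were left out it rose in KO by 0.28 ± 0.07 (adjusted p = 0.00244), from 55.2 ± 5.18 to 64.8 ± 7.95 CPM, and was at 0.17 ± 0.08 in WT (adjusted p = 0.0897). It was the only one of the 10 that any of these fits called higher under LPS, and its KO groups overlapped (48.5 to 62.7 CPM in ns and 54.7 to 77.9 in LPS).

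Smad7, the inhibitory SMAD, did not pass the test with all libraries. It was at 64.4, 73.9 and 111 CPM in WT ns and 12.6, 53.3 and 57.3 in WT LPS, with no overlap. In KO ns it was at 11.8, 75.1 and 86.1, and in KO LPS at 6.10, 47.5 and 56.4, where KO ns 5 and KO ns 6 again lay below most LPS samples. It was not called, at -0.47 ± 0.37 in KO and -0.81 ± 0.43 in WT (adjusted p = 0.393 and 0.166), or at -0.53 ± 0.38 in WT with all libraries as labelled (adjusted p = 0.398). When the GC-poor libraries were left out the KO groups separated too, at 72.3 to 86.1 in ns and 45.1 to 56.4 in LPS. Smad7 was then lower by -0.60 ± 0.09 in KO (adjusted p = 2.95e-06) and -0.57 ± 0.09 in WT (adjusted p = 1.88e-05), and in the first library set alone by -0.57 ± 0.11 and -0.68 ± 0.13, both called. It had the fewest counts of the 10 genes in that experiment, down to 149 in KO LPS 5. The nuclear inhibitors Ski and Skil were not called in any of these fits. Without the GC-poor libraries, Ski was at -0.18 ± 0.10 in KO and -0.13 ± 0.11 in WT, and Skil at 0.18 ± 0.10 and -0.02 ± 0.11. With all libraries as labelled, the WT values of Nrros, Smad2, Smad4, Ski and Skil were 0.03 ± 0.19, 0.21 ± 0.18, -0.03 ± 0.17, -0.27 ± 0.42 and 0.16 ± 0.22.

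**Figure D3:**
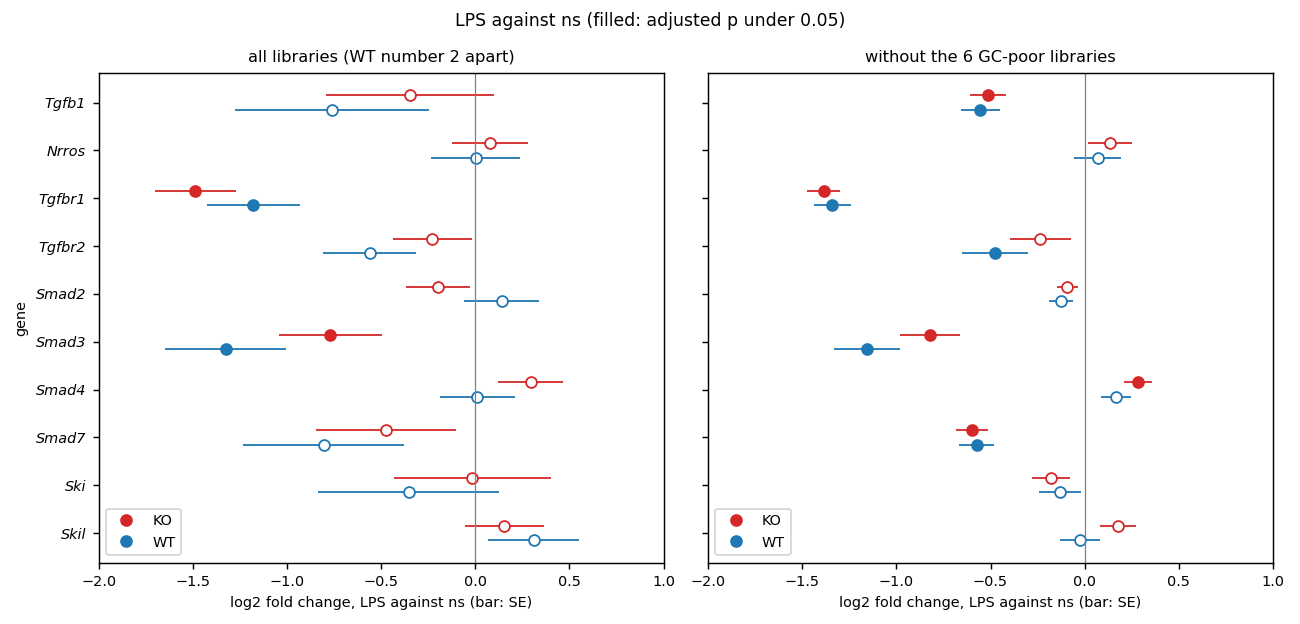
Log2 fold change of each gene under LPS against ns (x axis) with its SE, in KO (red) and WT (blue), with all libraries (left) and without the 6 GC-poor libraries (right). Filled points have an adjusted p-value under 0.05, and the SE of Tgfb1 in KO is 0.44 on the left and 0.09 on the right.

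Because Tgfbr1, Smad3 and Tgfb1 were lower together under LPS once GC-poor libraries were left out, the 250 bases before their transcription starts are shown, taken from RefSeq on the build GRCm38.p6, which is not the build of the counts. Of the 10 genes, 6 had an entry. Smad7, which was also lower in both genotypes without the GC-poor libraries, had none. Capitals mark each GC box, the core site of SP-family factors, spelled GGGCGG or its complement CCGCCC. The strand is plus for Tgfb1 (chr7:25686752-25687001) and Tgfbr1 (chr4:47352972-47353221) and minus for Smad3 (chr9:63757995-63758244).
Tgfb1: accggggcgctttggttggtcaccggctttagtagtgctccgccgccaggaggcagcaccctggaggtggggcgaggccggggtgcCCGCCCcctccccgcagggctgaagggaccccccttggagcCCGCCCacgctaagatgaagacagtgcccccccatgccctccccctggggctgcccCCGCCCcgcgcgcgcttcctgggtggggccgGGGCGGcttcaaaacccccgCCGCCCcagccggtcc
Tgfbr1: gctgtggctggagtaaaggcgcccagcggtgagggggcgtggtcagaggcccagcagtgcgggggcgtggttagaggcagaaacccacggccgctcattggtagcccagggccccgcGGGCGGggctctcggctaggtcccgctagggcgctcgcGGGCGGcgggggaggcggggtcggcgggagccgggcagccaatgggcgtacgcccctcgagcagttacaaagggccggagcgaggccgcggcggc
Smad3: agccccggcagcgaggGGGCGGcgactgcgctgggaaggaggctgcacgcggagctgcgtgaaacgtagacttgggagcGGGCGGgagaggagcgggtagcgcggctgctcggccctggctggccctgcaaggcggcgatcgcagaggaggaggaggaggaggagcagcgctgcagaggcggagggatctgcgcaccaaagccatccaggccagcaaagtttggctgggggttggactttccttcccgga
The windows are 75.2%, 74.8% and 69.2% G and C and hold 5, 2 and 2 GC boxes. A GC box is found in 32.7% of the 32851 promoter windows of this length in the table. The SMAD-binding element CAGAC, searched on both strands, was not found in these 3 windows and is present in 42.2% of all windows. It was found once in the windows of Tgfbr2 and Nrros and in a second listed window of Tgfbr1. The window of Ski, which was not called under LPS, is 87.6% G and C and holds 5 GC boxes and no CAGAC. A match is a match of letters only, and the data hold no measure of binding.

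Other genes of the pathway were read from lists, named by up to 3 genes of lowest adjusted p-value per direction. The counts stand beside the 11.9% of all genes called higher and 14.2% called lower in KO and the 13.5% and 14.6% in WT, and, without the GC-poor libraries, beside 49.9% and 49.6% called in either direction. Shares by direction are not given for the fit without the GC-poor libraries, so its counts by direction lack a matching share. Nothing is read from any of these counts as particular to a list. Of 12 direct targets of TGF-beta, 5 rose and 1 fell in KO, and 5 rose and 1 fell in WT. With the GC-poor libraries left out, 6 rose and 1 fell in KO and 8 rose and 1 fell in WT. The targets include Id2, an inhibitor of helix-loop-helix factors, at 1.37 ± 0.26 in KO and 2.11 ± 0.31 in WT. Cdkn1a, a cell-cycle inhibitor, was at 2.43 ± 0.40 and 1.87 ± 0.45, and Cdkn2b, another one, fell, at -1.39 ± 0.49 and -2.01 ± 0.59. The median log2 fold change of these 12 was 0.92 in KO and 0.73 in WT.

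Of 12 genes that microglia are known to keep on through TGF-beta, 7 fell in KO and 9 in WT and none rose, the others not passing the test, with medians of -0.79 and -1.21. Siglech, a microglial lectin, was at a log2 fold change of -2.32 ± 0.17 in KO and -2.32 ± 0.20 in WT. Slc2a5, a fructose transporter, was at -3.18 ± 0.33 and -4.08 ± 0.40, and Gpr34, a lysophospholipid receptor, at -3.56 ± 0.49 in KO. In WT the scavenger receptor-like gene Fcrls was at -1.66 ± 0.31. Of the 12, 11 and 10 fell without the GC-poor libraries, and none rose. Of 10 genes that TGF-beta is known to restrain in microglia, 1 rose and 3 fell in KO, and 1 rose and 5 fell in WT, with medians of -0.49 and -1.0004. These counts were 2 higher and 6 lower in KO and 1 higher and 7 lower in WT without the GC-poor libraries. The antigen-presentation genes H2-Ab1 and H2-Aa fell, at -3.09 ± 0.23 and -3.75 ± 0.33 in KO and -3.00 ± 0.26 and -2.94 ± 0.37 in WT, as did Cd74 at -0.89 ± 0.29 and -1.43 ± 0.34. Lpl, a lipoprotein lipase, rose by 0.96 ± 0.32 in KO, and Cd63, a late endosomal tetraspanin, by 1.30 ± 0.33 in WT.

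Among 10 other receptors tested, Acvr2b, an activin receptor, fell, at -1.002 ± 0.36 in KO and -1.48 ± 0.42 in WT. In KO, Acvrl1, an alternative type I receptor, rose by 0.44 ± 0.15, and in WT Acvr1 and the co-receptor Tgfbr3 fell, at -0.60 ± 0.19 and -1.41 ± 0.53. That is 1 higher and 1 lower in KO and 0 higher and 3 lower in WT, and without the GC-poor libraries 2 higher and 5 lower in KO and 1 higher and 4 lower in WT. Of 20 other SMADs and regulators, 1 rose and 3 fell in KO, and 3 rose and 4 fell in WT. They became 5 higher and 5 lower in KO and 5 higher and 6 lower in WT without the GC-poor libraries. Smurf2, a ubiquitin ligase that acts on SMADs and receptors, rose by 0.52 ± 0.13 and 0.66 ± 0.15. In WT, Fkbp1a, which binds type I receptors, rose by 0.31 ± 0.11 and Strap by 0.70 ± 0.26. Smad1, a SMAD of the BMP branch, fell, at -0.50 ± 0.14 in KO and -0.72 ± 0.16 in WT. The corepressor Tgif2 was at -1.23 ± 0.33 and -1.62 ± 0.38, and Pmepa1, an inhibitor that is itself a target, at -1.22 ± 0.38 and -1.49 ± 0.44. Of 12 other ligands and latent-complex genes tested, 1 fell and none rose in each genotype: Bmp2, at -4.59 ± 0.65 in KO and -4.203 ± 0.71 in WT. The ligand counts were 1 higher and 2 lower in KO and 2 higher and 2 lower in WT without the GC-poor libraries. Of 5 integrin subunits, Itgb8, part of the integrin that activates TGF-beta1, fell, at -2.13 ± 0.58 in KO, and none was called in WT. In the fit without the GC-poor libraries 2 integrin subunits were lower in KO and 1 in WT. With all libraries in their labelled groups, none of these lists held a called gene in WT.

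Marker levels differed between these groups. The summed level of 8 microglial markers, P2ry12 among them, was 29519.5 to 35924.5 CPM in KO ns and 20665 to 25477 in KO LPS, and 22441 to 39229 in WT ns and 16667 to 24292 in WT LPS. No microglial marker was at 0 in any sample. The sum of 10 neutrophil markers was 293 to 9557 in KO ns, 1004 to 4160 in KO LPS, 325 to 18237 in WT ns and 1676 to 12945 in WT LPS. That of 8 monocyte markers was 159 to 1234, 496 to 984, 273 to 2379 and 580 to 2830 in the same order. The sum of 6 border macrophage markers had a median of 365 in KO ns and 161 in KO LPS, and of 409 in WT ns and 135 in WT LPS. For 3 endothelial markers the sum was 59.7 to 92.1 in KO ns and 22.4 to 58.0 in KO LPS, and 45.6 to 57.0 in WT ns and 14.2 to 33.7 in WT LPS, with no overlap in either genotype. For 3 oligodendrocyte markers it was 47.1 to 75.7 in KO ns and 18.8 to 55.9 in KO LPS, and 71.5 to 88.6 in WT ns and 33.9 to 55.2 in WT LPS, with no overlap in WT. Neuronal and astrocyte markers summed to at most 18.2 CPM each in the LPS experiment, and B cell and T or NK cell markers to at most 78.5 CPM each. The part of these shifts in the LPS results was not tested.

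The second question is whether loss of P2RY12 changes the levels of these genes. In the sex experiment 0 of 10 were called in males (background 0.00946%), in females (0.164%) or averaged over the sexes (0.432%). Averaged over the sexes, 1 of the 10 and 2860 of all 31709 genes tested had an unadjusted p-value under 0.05 in edgeR's test. DESeq2 also called 0 of the 10 in each comparison. Tgfbr1 was at 1604, 2211, 2351 and 2768 CPM in the 4 male WT and at 2119, 2241, 2305, 2317 and 2576 in the 5 male KO animals. In females it was at 1549, 2384, 2607 and 2620 in WT and at 1766, 2082, 2146, 2158 and 2230 in KO. All groups overlapped. The log2 fold change was 0.05 ± 0.15 in males (95% interval -0.26 to 0.36) and -0.14 ± 0.15 in females (-0.45 to 0.16). The lowest value of each WT group belongs to an animal with a high neutrophil marker sum: male WT 5 had a neutrophil marker sum of 49213 CPM and female WT 2 one of 28858, against 724 to 7708 in the other 16 animals. Without these 2 animals, also chosen after seeing the data, the count of called genes stayed at 0 in every comparison.

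Smad7 had the only unadjusted p-value under 0.05 among the 10, in the average over the sexes. It was at 81.8, 89.5, 92.5 and 106 CPM in male WT and 92.8, 98.0, 102, 104 and 120 in male KO. In females it was at 73.2, 90.8, 96.9 and 114 in WT and 86.2, 110, 110, 120 and 127 in KO. Groups overlapped in both sexes, and the averaged log2 fold change was 0.20 ± 0.09 (95% interval 0.02 to 0.38, adjusted p = 0.516). Smad7 is also the gene with the largest share of opposite-strand counts. Tgfb1 was at 269, 352, 354 and 364 CPM in male WT and 288, 299, 318, 346 and 351 in male KO, with a log2 fold change of -0.06 ± 0.10. In females it was at 273, 297, 324 and 349 in WT and 286, 298, 322, 326 and 376 in KO, a change of 0.05 ± 0.10. The other members had averaged log2 fold changes between -0.11 (Smad4) and 0.04 (Tgfbr2). Over the 10 genes, the 95% intervals of the averaged change lay between -0.26 and 0.38 and those of the difference between the sexes between -0.62 and 0.43, with 0 genes called for that difference (background 0%). Of edgeR's tests of the difference between the sexes, 879 over all genes and none of the 10 had an unadjusted p-value under 0.05.

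**Figure D4:**
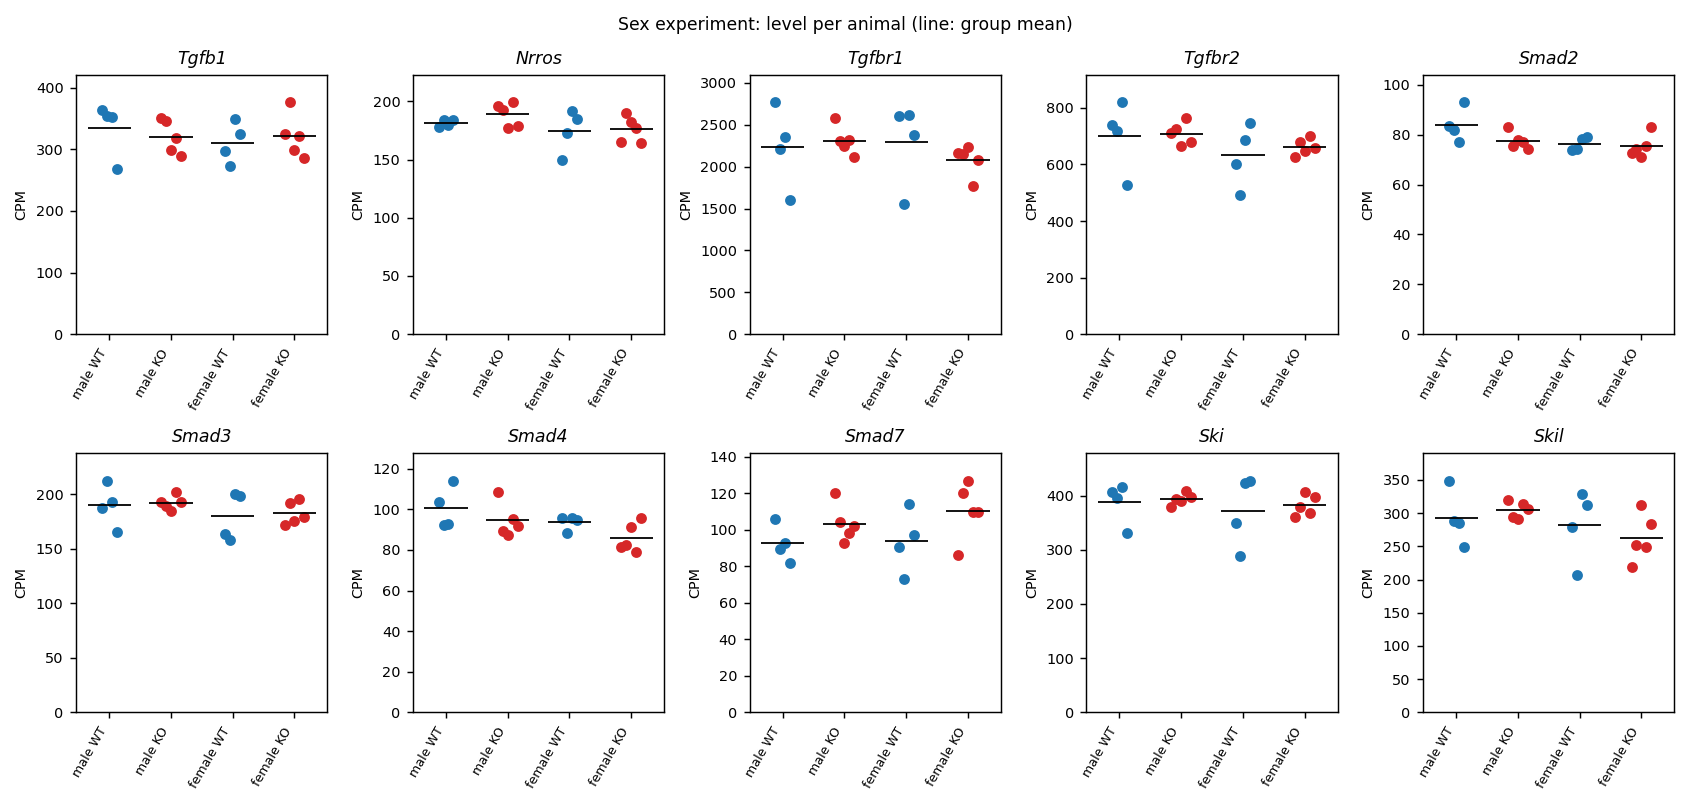
CPM (linear axis from 0) of each gene in the 18 animals of the sex experiment, by sex and genotype; points are animals and lines group means. WT and KO animals overlap for every gene, and the lowest Tgfbr1 values are 1604 in male WT and 1549 in female WT.

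In the LPS experiment, 0 of 10 were called between KO and WT at ns (background 0.0891%) or under LPS (0.078%). None had an unadjusted p-value under 0.05 in edgeR's test, and DESeq2 also called 0. At ns the largest difference was that of Tgfbr1 at 0.42 ± 0.23 (adjusted p = 0.573), which became 0.10 ± 0.09 without the GC-poor libraries, of which 2 are KO ns samples at 3325 and 5825 CPM. With all libraries as labelled 0 of 10 were called at ns (background 0.114%) and under LPS (0.126%). Tgfbr1 was then at 0.60 ± 0.31 at ns (adjusted p = 0.58) and at -0.49 ± 0.31 under LPS (adjusted p = 0.784), against 0.11 ± 0.23 under LPS with number 2 apart. Without the GC-poor libraries 0 were called at ns (background 0.252%) and under LPS (0.252%), and the 10 log2 fold changes lay between -0.12 (Smad3) and 0.10 (Tgfbr1) at ns and between -0.11 (Smad7) and 0.27 (Tgfbr2) under LPS. Of the other pathway genes, only Acvrl1 was called at ns, lower in KO by -0.78 ± 0.16 (adjusted p = 0.0417), and by -0.71 ± 0.15 with all libraries as labelled (adjusted p = 0.0426). It is the alternative type I receptor named above. In the sex experiment Acvrl1 was among the 11 receptors tested. No gene of these lists was called there in males, in females or averaged over the sexes. Under LPS none of the other pathway genes was called with number 2 apart. With all libraries as labelled, 1 of the 10 genes that TGF-beta restrains was called lower in KO under LPS.

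The response to LPS itself was compared between the genotypes by an interaction term, which is positive where the log2 fold change under LPS was higher in KO. 0 of 10 were called (background 0%), with none at an unadjusted p-value under 0.05 in edgeR's test and 0 called by DESeq2. Tgfbr1 was at -0.31 ± 0.32 and Smad3 at 0.56 ± 0.42. With the GC-poor libraries left out, 0 were called (background 0.00547%), Tgfbr1 was at -0.05 ± 0.13 and Smad3 at 0.33 ± 0.24. With all libraries in their labelled groups, Tgfbr1 was at -1.09 ± 0.43 (adjusted p = 0.422). For that interaction, 1 of the 10 (Tgfbr1) and 1698 of all 15857 genes had an unadjusted p-value under 0.05 in edgeR's test.

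**Figure D5:**
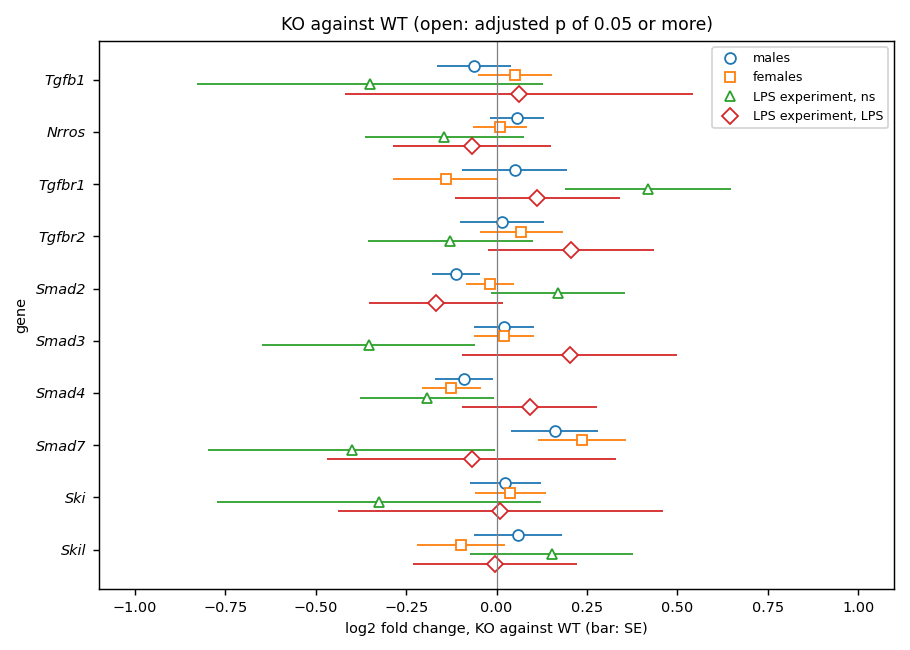
Log2 fold change of each gene in KO against WT (x axis) with its SE, in males and females of the sex experiment and at ns and under LPS in the LPS experiment. All points are open, since no adjusted p-value was under 0.05, and the bars of the LPS experiment, at 0.23 for Tgfbr1, are wider than those of males and females, at 0.15.

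The genes most like Tgfbr1 and Tgfb1 across samples were listed by Pearson's r of log2 CPM, as a description. Over the 32 samples of the LPS experiment, the 5 most like Tgfbr1 were St3gal6 (r = 0.980), Rgs2, Sgce, Stambpl1 and Lrba (r = 0.970), and those most like Tgfb1 were Zfp385a (0.995), Zfp319, Hnrnpul1, Tbkbp1 and Plekhn1 (0.991). The 6 GC-poor libraries are among these points. Over the 18 animals of the sex experiment, Tgfbr1 was most like Trim2 (0.949), Nrip1, Gm32435, Pigf and Plxdc2 (0.930), of which Gm32435 overlaps Tgfbr1 on the opposite strand. Tgfb1 was most like Tfe3 (0.905), P2ry6, Slc10a3, Sting1 and St6galnac4 (0.891).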

How the data were processed

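RNA of CD11b-positive brain cells was sequenced as poly(A) libraries on a NovaSeq, per the labels' protocols. The authors deposited raw read counts per gene in 2 tables. The submitters' processing notes name FastQC, STAR 2.6.1, featureCounts, Subread, DESeq2 and the build GRCm39, with no settings. In the sex experiment 78.4% to 87.7% of counts from 1 to 50 were even, against 41.0% to 46.2% in the LPS experiment, so its counts may hold both reads of a pair, and the 2 tables were not compared with each other. The tables have 18 and 33 sample columns, and 6 repeat libraries of the 57 labelled were not analysed here.

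Genes passing edgeR's filterByExpr (31709 and 17954) were tested on TMM-scaled counts by the robust quasi-likelihood test of edgeR 4.0.16 (R 4.3.3, limma 3.58.1), with Benjamini-Hochberg adjustment over all of them and a threshold of 0.05. The sex fit had 1 mean per sex and genotype. The LPS fit had 1 mean per genotype and treatment, the WT number 2 libraries in groups of their own, WT LPS 8 and 9 summed, and the library set as a covariate. The SE is the absolute log2 fold change divided by the square root of F. The biological coefficient of variation was 35.3% and 42.3%. Alternatives were DESeq2 1.42.0, other scaling and filters, a replicate block, other handling of the number 2 libraries, each set alone and leaving out libraries. GC-poor libraries were those with a slope under -0.5 per 10 GC points, over genes of at least 5 CPM on average.

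All 10 genes are named. Of each pathway list, up to 3 called genes of lowest adjusted p-value per direction are named, except 1 that is not reported here, and for likeness the 5 genes of highest r. The members and lists were chosen with earlier results of these data known. The scripts were tested on simulated data.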

Additional observations from a re-analysis of the deposited data

Results flagged for a closer look

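For the 10 genes, 80 sets of values (1 gene in 1 group of 4 to 8 samples) were examined, and the highest or lowest sample was tested for standing apart from the rest by Dixon's criterion. Chance alone flags about 1 in 20 sets, and 18 were found, in 5 libraries. In KO LPS 5, Tgfb1 (19.3 CPM), Smad7 (6.10), Ski (36.3) and Smad4 (28.1) were lowest, and Tgfbr1 (2163), Skil (750.5) and Smad2 (76.5) highest. In WT LPS 7, Tgfb1 (65.1), Smad7 (12.6), Ski (112) and Smad4 (31.9) were lowest, and Tgfbr1 (1482), Skil (828.8) and Smad2 (114) highest. In KO ns 6, Tgfbr1 (5825) and Smad2 (93.8) were highest. These 3 libraries are among the GC-poor ones. In the sex experiment, female WT 2 was lowest for Smad4 (88.5 CPM) and male WT 5 for Tgfb1 (269), the 2 animals with the highest neutrophil marker sums.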

How the results depend on the processing

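For LPS against ns in KO, 2 genes were called. The count was 1 with no filter on low counts, with number 2 in the labelled groups or without the set covariate, 4 in set 1 alone and 0 in set 2 alone. It was 5 without the GC-poor libraries, also with DESeq2 or RLE scaling there, and 5 with the GC slope of a library as a covariate. For WT, 2 were called, against 0 with number 2 in the labelled groups, 5 in set 1 alone, 0 in set 2 alone and 5 under each of the 4 GC alternatives. The WT count was 4 with every library of number 2 left out, KO libraries and 4 GC-poor ones among them. Leaving out 1 library gave 1 to 2 in KO, where Smad3 was the gene lost, and 2 to 3 in WT. The counts over all genes moved as well, so those of the 10 are not read as particular to them. Over all genes, 4696 were called in KO and 5039 in WT, against 721 to 9200 and 0 to 9133 under the other settings. They were 3542 and 0 with number 2 in the labelled groups, and 9120 and 9065 without the GC-poor libraries. For KO against WT, averaged over the sexes, 137 were called, against 122 to 358 (54 to 279 leaving out 1 animal), in females 52 against 3 to 210, in males 3 against 2 to 27, at ns 16 against 1 to 194, under LPS 14 against 0 to 207, and for the interaction with LPS 0 against 0 to 9. None of the 10 was called for KO against WT or either interaction under any setting run. No called gene changed sign, and 39 of 459 values that were not called had the opposite sign. Same-numbered libraries were not taken as pairs, since not every pair's correlation of deviations was above 0.1. It was above 0.1 in 7 of 24 in the sex experiment (mean r = 0.00677) and in 10 of 35 in the LPS experiment (mean 0.0738, highest 0.725). For differently numbered libraries the mean was -0.000769 and -0.0138. Noisy pairs can fail this rule, so it does not show that same-numbered libraries are unpaired. The GC-poor libraries do share numbers: 4 carry number 2 and 2 carry number 3 of set 2. With a replicate block, 5 genes were called for LPS against ns in WT and 2 in KO, and 0 in every KO comparison with WT. The fit of only the groups compared is the same as the main one for the sex average and the difference between the sexes, and was not run. It was also not run for the interaction with LPS, where the main fit holds the WT number 2 groups as well. The GC alternatives, leaving out each library in the LPS experiment and leaving out 2 animals were chosen after seeing the data.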
